A study of Mus musculus with 20 samples.

Results

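A set of 54 genes of the endocardium and of the coronary and lymphatic endothelium was followed in hearts of E13.5 mouse embryos, out of 48795 genes in the deposited table. The members were chosen by name as genes known from these cells, with earlier results of these data known. All of them lie outside the duplicated region of the mutants, so the duplication adds no copy of any of them. Apln lies on the X chromosome, and the labels do not give the sex of the embryos. All 54 were found in the table, and all 54 passed the filter on low values used for testing, a mean normalized count of at least 10. Of these, 49 had a mean of at least 100, and Ramp3, Stab2, Gpihbp1, Cytl1 and Sox17 lay between 10 and 100.

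The study asked how an extra copy of Dyrk1a, which encodes a protein kinase, contributes to the heart defects of a mouse model of Down syndrome. Whole hearts were sequenced as mRNA libraries from 10 wildtype (WT), 5 Dp1Tyb and 5 Dp1TybDyrk1a+/+/- embryos on a C57BL/6J background. Dp1Tyb mice carry an extra copy of the part of chromosome 16 from Lipi to Zbtb21. Dp1TybDyrk1a+/+/- mice carry the same duplication together with a null allele of Dyrk1a on the duplicated chromosome, kept as a strain of its own, so that 2 working copies of Dyrk1a remain beside 3 copies of the other duplicated genes. In the study each strain had WT controls from its own litters, but the labels do not say which WT hearts belong to which strain. All 10 were therefore used in every comparison, and a difference between strains cannot be told apart from one between the mutant genotypes.

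Endocardium lines the chambers of the heart, forms the valve cushions and gives rise to part of the coronary vessels, while the lymphatic vessels of the heart grow in later. Endothelial cells hold together through junction proteins such as VE-cadherin, respond to VEGF and angiopoietins through receptor tyrosine kinases, and read peptide hormones such as adrenomedullin and apelin through G protein-coupled receptors. Transcription factors of the ETS, SOX and KLF families keep the endothelial programme in place.

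In Dp1Tyb hearts 7 of the 54 members were higher than in WT (adjusted P < 0.05, limma) and 0 were lower: Entpd1, Calcrl, Mmrn2, Cytl1, Ramp3, Clec14a and Plvap. Over all 15304 genes tested, 3.08% passed the test in this comparison, 1.81% being higher and 1.27% lower. An unadjusted P under 0.05 was found for 20 members and for 15.6% of all genes. In Dp1TybDyrk1a+/+/- hearts 4 members were higher than in WT, Entpd1, Mmrn2, Clec14a and Calcrl, and 0 were lower, against 0.712% of all genes in either direction, 0.627% higher and 0.0849% lower. There 13 members had an unadjusted P under 0.05, beside 9.64% of all genes. Between Dp1Tyb and Dp1TybDyrk1a+/+/- hearts 0 members passed the test in limma, while 1.16% of all genes passed, 0.425% being higher and 0.738% lower in Dp1Tyb. An unadjusted P under 0.05 was found for 8 members, Robo4, Ramp3, Klf2, Klf4, Cytl1, Stab2, Lyve1 and Prox1, and for 18.5% of all genes. With both duplication genotypes set against WT together, 5 members were higher, Entpd1, Calcrl, Mmrn2, Clec14a and Cytl1, and 0 were lower, against 1.35% of all genes in either direction, 1.12% higher and 0.235% lower. An unadjusted P under 0.05 was found there for 19 members and for 10% of all genes (1533 of 15304). The WT hearts are shared by the comparisons, so these lists are not independent of each other. The members were chosen with earlier results of these data known. Their counts beside the shares of all genes, here and below, are therefore no test of the set.

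For the higher members that could be matched to RefSeq promoters (GRCm38.p6), the 250 bases before the transcription start are given to show what stands next to their starts. The promoter table held 32 of the 54 members and 5 of the 7 higher ones, the others being Mmrn2 and Plvap. Capitals mark each AGGAAG or its reverse complement CTTCCT, a core of the sites bound by ETS factors, where overlapping matches run together.
Calcrl, chr2:84425267-84425516, minus strand: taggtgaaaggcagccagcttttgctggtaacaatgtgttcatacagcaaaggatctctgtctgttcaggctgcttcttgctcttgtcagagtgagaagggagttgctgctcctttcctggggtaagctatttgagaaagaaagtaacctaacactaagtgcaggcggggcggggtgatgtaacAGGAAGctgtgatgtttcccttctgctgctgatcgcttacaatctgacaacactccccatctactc
Clec14a, chr12:58269259-58269508, minus strand: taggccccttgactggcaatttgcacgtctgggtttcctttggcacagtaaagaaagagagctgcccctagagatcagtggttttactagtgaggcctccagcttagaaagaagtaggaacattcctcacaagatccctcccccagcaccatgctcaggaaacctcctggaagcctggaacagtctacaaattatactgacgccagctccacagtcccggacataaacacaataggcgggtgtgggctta
Cytl1, chr5:37735269-37735518, plus strand: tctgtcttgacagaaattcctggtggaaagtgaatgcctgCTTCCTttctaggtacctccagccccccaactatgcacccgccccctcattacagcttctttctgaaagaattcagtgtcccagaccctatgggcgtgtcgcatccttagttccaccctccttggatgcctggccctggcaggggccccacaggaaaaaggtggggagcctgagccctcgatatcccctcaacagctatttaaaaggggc
Entpd1, upstream start, chr19:40612116-40612365, plus strand: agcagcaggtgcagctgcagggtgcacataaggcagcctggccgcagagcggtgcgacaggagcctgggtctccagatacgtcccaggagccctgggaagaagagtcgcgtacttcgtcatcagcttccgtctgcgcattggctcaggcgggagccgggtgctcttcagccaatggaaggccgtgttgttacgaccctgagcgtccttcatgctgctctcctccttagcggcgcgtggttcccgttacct
Entpd1, downstream start, chr19:40659520-40659769, plus strand: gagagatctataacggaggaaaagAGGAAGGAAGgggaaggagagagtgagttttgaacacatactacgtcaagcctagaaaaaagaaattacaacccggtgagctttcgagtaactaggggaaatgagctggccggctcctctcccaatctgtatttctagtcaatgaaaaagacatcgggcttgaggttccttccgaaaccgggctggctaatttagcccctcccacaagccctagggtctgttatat
Ramp3, chr11:6658283-6658532, plus strand: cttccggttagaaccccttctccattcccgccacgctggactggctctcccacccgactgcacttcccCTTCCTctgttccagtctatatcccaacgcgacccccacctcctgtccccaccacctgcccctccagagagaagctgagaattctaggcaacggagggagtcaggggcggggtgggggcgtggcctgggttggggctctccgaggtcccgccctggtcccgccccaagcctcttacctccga

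The AGGAAG core was found in the windows of Calcrl, Cytl1 and Ramp3 and of the downstream start of Entpd1, and not in those of Clec14a or the upstream start of Entpd1. Over the member starts it stood in 18 of 42 windows (42.9%), beside 29.5% of all 32851 promoter windows of the same length, searched on both strands. The related CGGAAG stood in 14.3% of member windows and 13.6% of all. The KLF-type CCNCNCCC stood in 61.9% and 45.9%, and the SOX-type AACAAT in 9.5% and 9.4%. The GATA-type AGATAA stood in 3 of 42 member windows (7.1%) and in 10% of all windows (3281 of 32851). A match describes the letters of these windows and says nothing about binding. The motifs were chosen after their values were seen, and the 42 starts belong to 32 genes. These shares are therefore no test of the members.

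Some defining genes of endothelium and endocardium were among the members with the highest levels per length in WT hearts, while others stood lower. Levels are given here as the mean log2 normalized count per kilobase of the canonical transcript. Npr3, the clearance receptor for natriuretic peptides and a marker of the endocardium, stood highest at 10.47. Cav1, the coat protein of caveolae, followed at 10.21 and Cdh5, which encodes VE-cadherin, at 10.20, and these 2 did not differ beyond their spread between WT hearts (SD 0.085 and 0.077, n = 10). Ece1 stood at 9.975, Cd34, a sialomucin, at 9.87, Cd93 at 9.795 and Pecam1, a junctional adhesion molecule, at 9.70. The lowest members were Stab2, a scavenger receptor, at 1.08, Ramp3 at 4.03, Tll1, a metalloprotease needed for septation of the heart, at 4.40 and Sox17 at 4.77. Of other genes of these cells, Tek stood at 9.283, Tie1 at 9.231, Emcn at 8.599 and Cytl1 at 5.272, with Kdr between Tie1 and Emcn. Without division by length the WT mean of Npr3 was 12.028, below Cd93 at 12.547, Ece1 at 12.249 and Cdh5 at 12.209. The plot of WT levels shows the full order within each role.

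**Figure D1:**
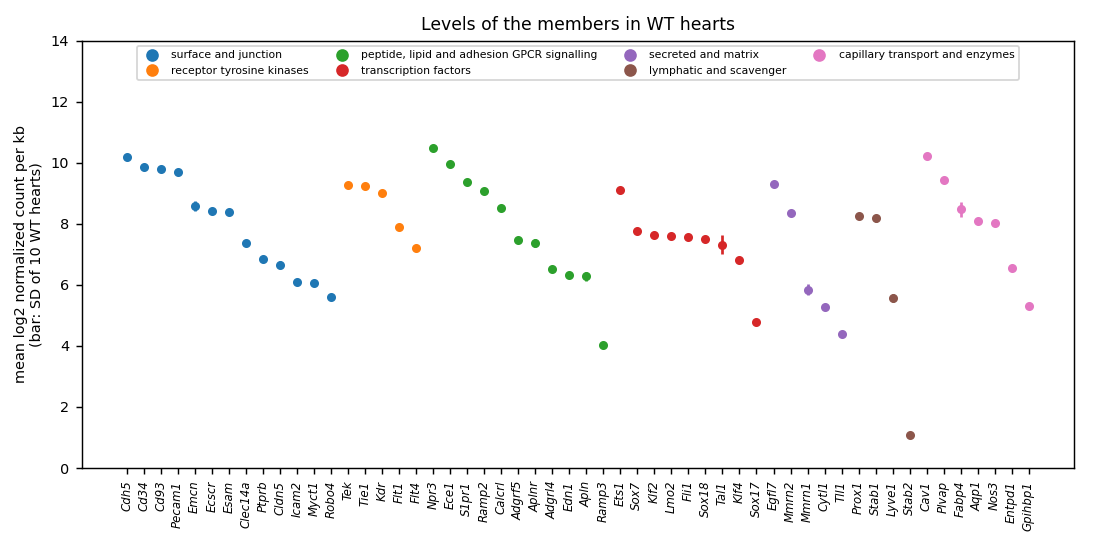
Mean log2 normalized count per kilobase of the canonical transcript in WT hearts for the 54 members, on a linear axis of log2 values from 0 to 14. Points are the mean of 10 WT hearts, bars their SD and colours the role of the gene. Npr3 stands highest at 10.47 and Stab2 lowest at 1.08.

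The SD between the 10 WT hearts had a median of 0.0745 over the members, from 0.03 for Cytl1 to 0.297 for Tal1. Over the 11399 genes with a mean count of at least 100 the median was lower, at 0.0573. The member median includes the 5 members with a mean count between 10 and 100, and the other median leaves out such genes. The mean log2 value over the 54 members ran from 9.34 to 9.40 in WT hearts, from 9.36 to 9.42 in Dp1Tyb hearts and from 9.36 to 9.40 in Dp1TybDyrk1a+/+/- hearts, so that the genotypes overlapped. The median log2 fold change over the members was 0.0308 in Dp1Tyb against WT, where the median over all genes was -0.00187, and 34 of 54 members were above 0, where 48.5% of all genes were. In Dp1TybDyrk1a+/+/- against WT the median was 0.00621 beside -0.0030 over all genes, with 31 members above 0 and 47.4% of all genes. Between Dp1Tyb and Dp1TybDyrk1a+/+/- the median was 0.0143 beside 0.00278, with 31 members above 0 and 52.0% of all genes, and for both duplication genotypes against WT it was 0.0222 beside -0.00274, with 34 members and 46.1%. In these bulk samples fewer cells of a type and less RNA per cell cannot be told apart.

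Before the single genes, 2 hearts have to be named. WT replicate 6 and Dp1TybDyrk1a+/+/- replicate 2 stood apart from the other hearts of their genotype, with an SD of their deviation over 11399 genes of 0.161 and 0.255, where the other 18 hearts lay between 0.0561 and 0.112. Their mitochondrially encoded genes averaged 15.27 and 15.68 on the log2 scale, and 14.59 to 14.98 in the others. By genotype they ran from 14.63 to 15.27 in WT, from 14.59 to 14.76 in Dp1Tyb and from 14.72 to 15.68 in Dp1TybDyrk1a+/+/- hearts, and their part in the results was not tested. Of the members, 19 lay more than 0.1 from the median of their genotype in both hearts. Above it in both were 12 of them, Adgrl4, Cd34, Cdh5, Emcn, Fabp4, Fli1, Myct1, Prox1, Ramp2, S1pr1, Sox18 and Sox7, and below it in both were 6, Aqp1, Egfl7, Esam, Icam2, Stab1 and Tie1. The map of heart deviations shows both columns. What sets these hearts apart was not tested, and results that change without them are given both ways.

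**Figure D2:**
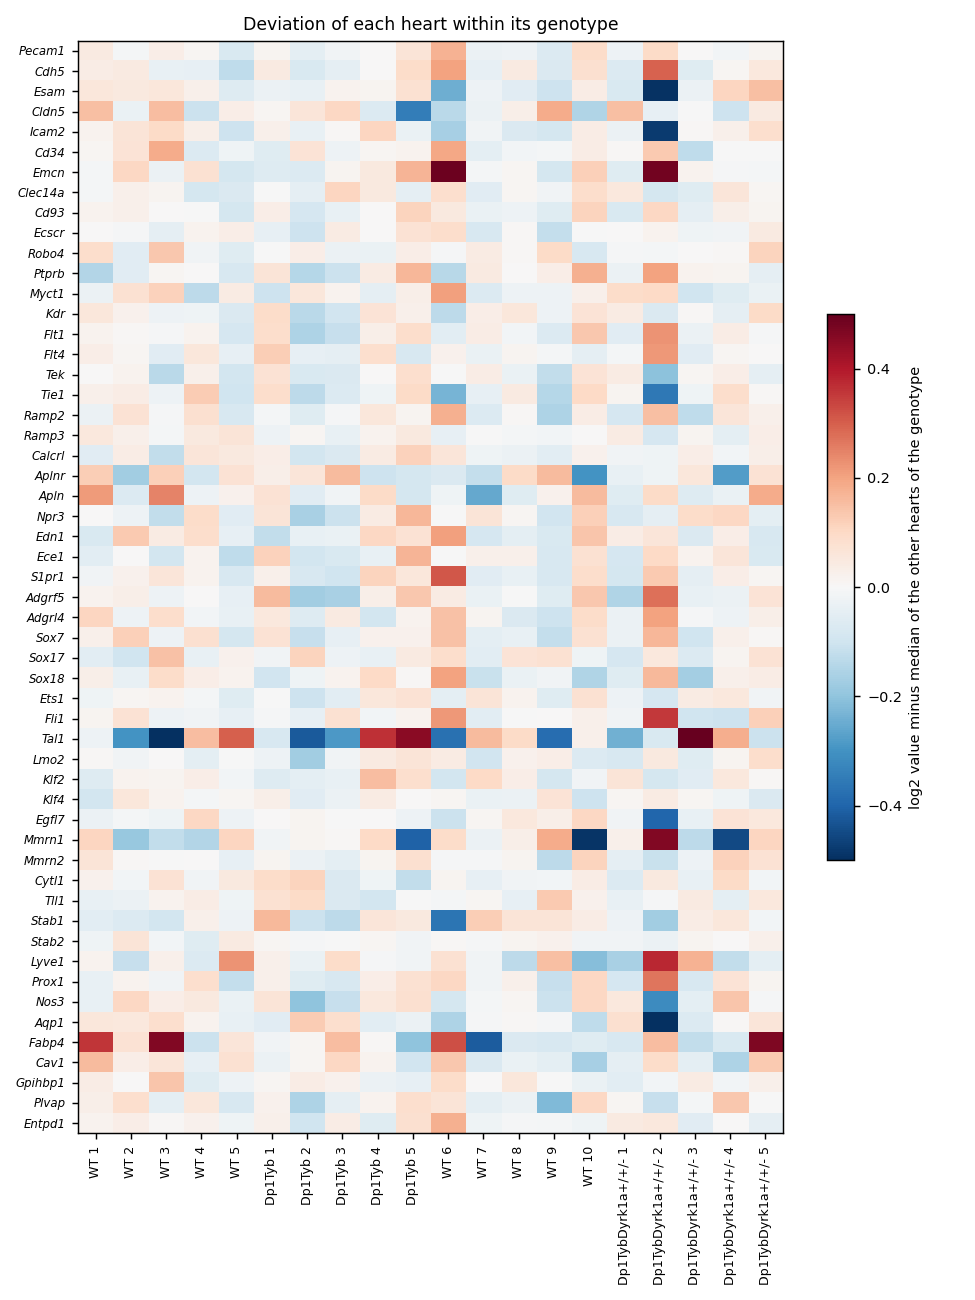
Deviation of each heart (columns) from the median of the other hearts of its genotype for the 54 members (rows), in log2 units, with red above and blue below and the colour scale ending at 0.5 on either side. WT replicate 6 and Dp1TybDyrk1a+/+/- replicate 2 show the strongest columns, and Tal1 departs from white in most hearts.

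Without these 2 hearts, an alternative chosen after the values had been seen, 13 members passed the test in Dp1Tyb against WT, beside 7.70% of all genes. All 7 named above remained, and Flt4, Ramp2, Stab1, Nos3 and Aqp1 joined them as higher and Fli1 as lower. In Dp1TybDyrk1a+/+/- against WT the same 4 passed, beside 1.39% of all genes. Flt4 and Lyve1 were then higher in Dp1Tyb than in Dp1TybDyrk1a+/+/- hearts, 2 members beside 3.96% of all genes. With both duplication genotypes set against WT 10 members passed, all higher, beside 3.44% of all genes: the 5 named above and Tek, Ramp2, Ramp3, Aqp1 and Plvap.

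**Figure D3:**
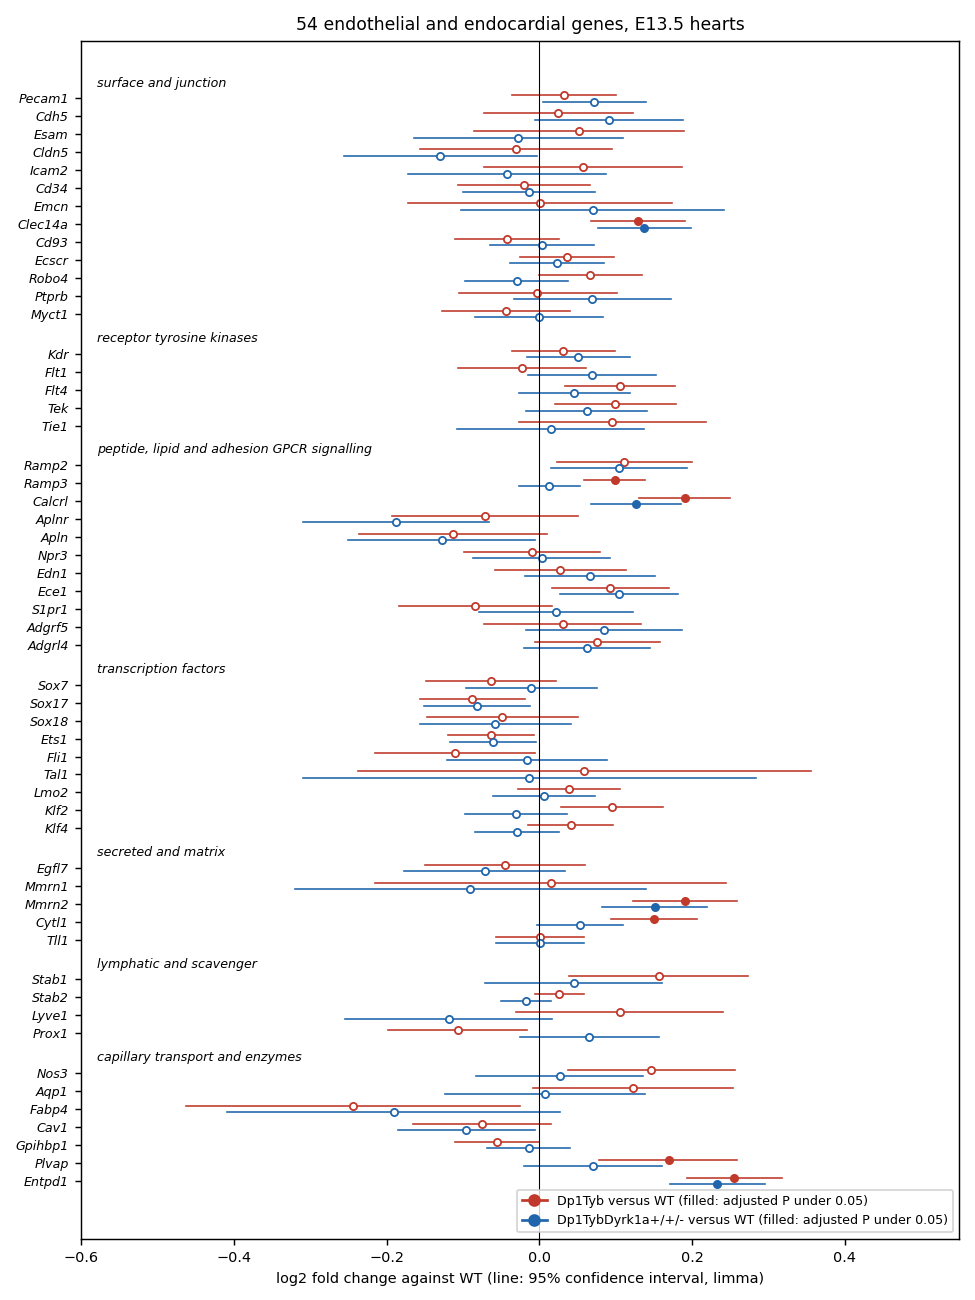
Log2 fold change against WT of each member, grouped by role, in Dp1Tyb (red) and Dp1TybDyrk1a+/+/- (blue) hearts. Points are limma estimates, lines 95% confidence intervals and filled points adjusted P-values under 0.05. The 7 filled red and 4 filled blue points all lie to the right of 0, and Tal1, Mmrn1 and Fabp4 have the widest intervals.

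Capillary transport and enzymes held the member with the largest change. Entpd1 encodes CD39, an ectoenzyme that breaks down ATP and ADP in the lumen. Its log2 normalized count in the WT hearts was lowest at 9.04, median 9.07 and highest at 9.24, where the highest is WT replicate 6 and the next lies at 9.10. The Dp1Tyb hearts gave 9.36, 9.26, 9.36, 9.30 and 9.41, and the Dp1TybDyrk1a+/+/- hearts 9.35, 9.36, 9.28, 9.32 and 9.29. No mutant heart overlapped with any WT heart. In log2 units the change was 0.255 ± 0.0299 (SE) in Dp1Tyb, 1.193-fold, with an adjusted P = 1.07e-05 (limma) and an exact two-sided permutation P = 0.000333, the smallest that 5 against 10 hearts can give. In Dp1TybDyrk1a+/+/- it was 0.233 ± 0.0299 (SE), 1.175-fold, with an adjusted P = 3.62e-05 (limma) and the same permutation P. Between the mutants it differed by 0.0216 with a 95% interval of -0.0502 to 0.0934 and an adjusted P = 0.763 (limma).

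Plvap forms the diaphragms of fenestrae and caveolae. The WT hearts ran from 10.31 through a median of 10.52 to 10.61, the Dp1Tyb hearts gave 10.71, 10.55, 10.66, 10.70 and 10.77, and the Dp1TybDyrk1a+/+/- hearts gave 10.58, 10.46, 10.57, 10.71 and 10.57. Dp1Tyb replicate 2 lay within the WT range and the other 4 above it. On the log2 scale the change was 0.169 ± 0.0436 (SE) in Dp1Tyb, adjusted P = 0.0367 (limma), and 0.0699 in Dp1TybDyrk1a+/+/-, adjusted P = 0.621. The call in Dp1Tyb was lost when any of 8 hearts was left out, WT replicates 3, 5, 7 and 8 and Dp1Tyb replicates 1, 3, 4 and 5, with an adjusted P of up to 0.118. Annotated exons of Plvap share 834 bases with Gtpbp3 on the other strand, and the strand setting of the counting is not given in the sources used here.

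The other 5 members of this role did not pass. Cav1 had WT hearts from 11.56 to 11.85, Dp1Tyb hearts from 11.56 to 11.74 and Dp1TybDyrk1a+/+/- hearts from 11.50 to 11.73, and log2 fold changes of -0.075 and -0.0956. Fabp4, a fatty acid carrier of capillary endothelium, had the most negative estimate in Dp1Tyb, -0.244 ± 0.105 (SE), adjusted P = 0.255 (limma), but its WT hearts already spread from 8.48 to 9.30 and enclosed every mutant heart. Nos3, the endothelial nitric oxide synthase, stood at 0.146 in Dp1Tyb, adjusted P = 0.153, and at 0.137, adjusted P = 0.0325, without the 2 hearts that stood apart. Aqp1, a water channel, went from 0.123, adjusted P = 0.366, to 0.107, adjusted P = 0.0381, in the same step. Gpihbp1, which holds lipoprotein lipase on capillaries, stood at -0.0559.

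**Figure D4:**
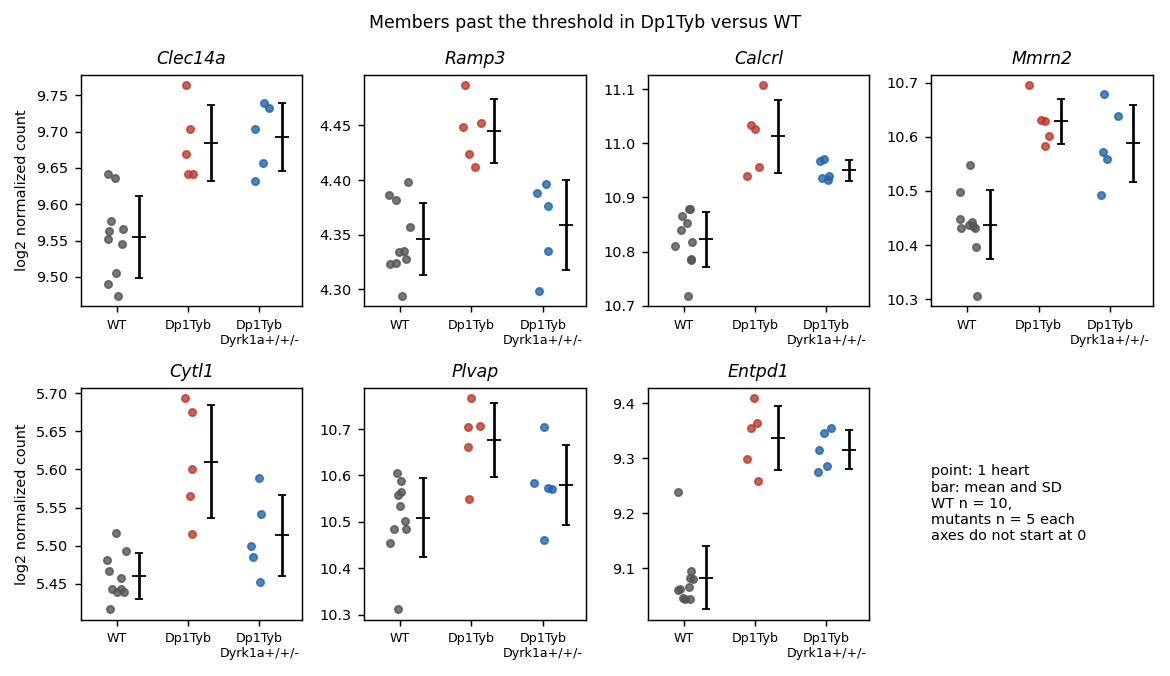
Log2 normalized count of the 7 members higher in Dp1Tyb than in WT hearts, with 1 point for each heart. Bars give the mean and SD of 10 WT, 5 Dp1Tyb and 5 Dp1TybDyrk1a+/+/- hearts, and the axes do not start at 0. Entpd1 and Calcrl have both mutants above every WT heart, while the Ramp3 hearts of Dp1TybDyrk1a+/+/- lie within the WT range.

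Peptide, lipid and adhesion receptor signalling held Calcrl and Ramp3. Calcrl encodes the calcitonin receptor-like receptor, which becomes an adrenomedullin receptor when paired with the accessory proteins encoded by Ramp2 or Ramp3. The WT hearts for Calcrl ran from 10.72 through 10.83 to 10.88, the Dp1Tyb hearts gave 11.03, 10.94, 10.96, 11.03 and 11.11, and the Dp1TybDyrk1a+/+/- hearts gave 10.94, 10.93, 10.97, 10.94 and 10.97. All 10 mutant hearts lay above all WT hearts. The log2 fold change was 0.190 ± 0.0281 (SE) in Dp1Tyb, adjusted P = 0.000236 (limma), exact permutation P = 0.000333, and 0.126 ± 0.0281 (SE) in Dp1TybDyrk1a+/+/-, adjusted P = 0.0317, with the same permutation P. The latter call was lost when any of 8 hearts was left out, WT replicates 1, 7, 8 and 9 and Dp1TybDyrk1a+/+/- replicates 1, 3, 4 and 5, with an adjusted P of up to 0.127.

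Ramp3 was weakly expressed, and its WT hearts ran from 4.29 through 4.33 to 4.40. The Dp1Tyb hearts gave 4.42, 4.45, 4.41, 4.45 and 4.49, each above all WT hearts, and the Dp1TybDyrk1a+/+/- hearts gave 4.40, 4.30, 4.38, 4.33 and 4.39, none above the highest WT heart. In log2 units the change was 0.0985 ± 0.0192 (SE) in Dp1Tyb, adjusted P = 0.0051 (limma), exact permutation P = 0.000333, and 0.0127 in Dp1TybDyrk1a+/+/-, adjusted P = 0.848. The difference between the mutants was 0.0859 (95% interval 0.0397 to 0.132), with no overlap of hearts, and missed the threshold at an adjusted P = 0.0561 (limma). It passed without WT replicate 6 (adjusted P = 0.0389) or without Dp1TybDyrk1a+/+/- replicate 1 (adjusted P = 0.0439), and at 0.0576 did not pass without both hearts that stood apart. Ramp2 stood at 0.111 in Dp1Tyb, adjusted P = 0.188, and 0.104 in Dp1TybDyrk1a+/+/-, adjusted P = 0.426. Without both hearts its Dp1Tyb value was 0.131, adjusted P = 0.0198. The Ramp2 exons share 1133 annotated bases with Vps25 on the same strand, so its counts are uncertain.

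The endothelin axis and the apelin axis did not pass in any comparison. Ece1, which activates endothelin, had WT hearts from 12.14 to 12.35 (median 12.27) and stood at 0.0927 in Dp1Tyb, adjusted P = 0.212, and 0.104 in Dp1TybDyrk1a+/+/-, adjusted P = 0.340. Edn1, which encodes endothelin-1, stood at 0.0275 and 0.0661. Apln, which encodes apelin, had the most negative estimate of this role in Dp1Tyb at -0.113, adjusted P = 0.373, and -0.128 in Dp1TybDyrk1a+/+/-, and its WT hearts from 7.69 to 8.17 enclosed all mutant hearts. Its receptor Aplnr stood at -0.0709 and -0.188, adjusted P = 0.625 and 0.233. The endocardial Npr3 stood at -0.00954 and 0.00271, with 95% intervals from limma that span 0. S1pr1, the sphingosine-1-phosphate receptor, and the adhesion receptors Adgrf5 and Adgrl4 lay between -0.0839 and 0.0845 in both comparisons.

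Secreted and matrix members included Mmrn2 and Cytl1. Mmrn2 encodes multimerin-2, an endothelial matrix protein that binds the surface lectins CLEC14A and CD93. Its WT hearts ran from 10.31 through 10.44 to 10.55, the Dp1Tyb hearts gave 10.63, 10.60, 10.58, 10.63 and 10.70, and the Dp1TybDyrk1a+/+/- hearts gave 10.56, 10.49, 10.57, 10.68 and 10.64. Every Dp1Tyb heart lay above all WT hearts, as did 4 of 5 Dp1TybDyrk1a+/+/- hearts, replicate 2 being the exception. On the log2 scale the change was 0.191 ± 0.033 (SE) in Dp1Tyb, adjusted P = 0.00163 (limma), exact permutation P = 0.000333, and 0.151 ± 0.033 (SE) in Dp1TybDyrk1a+/+/-, adjusted P = 0.0289, exact permutation P = 0.000999. In the second comparison the call was lost without WT replicate 5 or 7 or Dp1TybDyrk1a+/+/- replicate 3, 4 or 5, with an adjusted P of up to 0.147.

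Cytl1, a small secreted cytokine-like protein, was weakly expressed and had the smallest WT spread, from 5.42 through 5.45 to 5.52. The Dp1Tyb hearts gave 5.68, 5.69, 5.57, 5.60 and 5.52, of which 4 lay above all WT hearts, and the Dp1TybDyrk1a+/+/- hearts gave 5.45, 5.54, 5.49, 5.59 and 5.50, of which 2 did. The log2 fold change was 0.150 ± 0.0271 (SE) in Dp1Tyb, adjusted P = 0.00266 (limma), exact permutation P = 0.000666, and 0.0534 in Dp1TybDyrk1a+/+/-, adjusted P = 0.547. The difference between the mutants was 0.0963, adjusted P = 0.117. Egfl7, a secreted regulator of vessel growth, stood at -0.0449, Mmrn1, a multimerin of lymphatic endothelium and platelets, at 0.0145 and Tll1 at 0.000383 in Dp1Tyb, with log2 fold changes of -0.0717, -0.0909 and 0.000943 in Dp1TybDyrk1a+/+/-. None of the 3 passed.

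Surface and junction proteins were the largest role, and 12 of its 13 members did not pass in any comparison. Clec14a, a C-type lectin of the endothelial surface, was the exception. Its WT hearts ran from 9.47 through 9.56 to 9.64, the Dp1Tyb hearts gave 9.67, 9.64, 9.76, 9.70 and 9.64, and the Dp1TybDyrk1a+/+/- hearts gave 9.73, 9.63, 9.66, 9.74 and 9.70. The 2 lowest Dp1Tyb hearts were level with the highest WT heart to 2 decimals, and Dp1TybDyrk1a+/+/- replicate 2 lay within the WT range. In log2 units the change was 0.129 ± 0.0294 (SE) in Dp1Tyb, adjusted P = 0.0164 (limma), exact permutation P = 0.000333, and 0.137 ± 0.0294 (SE) in Dp1TybDyrk1a+/+/-, adjusted P = 0.0222, exact permutation P = 0.000999. The first call was lost without Dp1Tyb replicate 3 or 4, adjusted P up to 0.0803, and the second without Dp1TybDyrk1a+/+/- replicate 1, 4 or 5, adjusted P up to 0.107.

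Cd93, of the same lectin family, had WT hearts from 12.46 to 12.66, Dp1Tyb hearts from 12.43 to 12.60 and Dp1TybDyrk1a+/+/- hearts from 12.48 to 12.64. Its log2 fold change was -0.0421 in Dp1Tyb, adjusted P = 0.599, and 0.00363 in Dp1TybDyrk1a+/+/-. Myct1, an endothelial surface protein, had the most negative estimate of the role in Dp1Tyb at -0.0439, adjusted P = 0.665. The junction genes stood close to 0 in Dp1Tyb, with Pecam1 at 0.032 (95% interval -0.0357 to 0.0996), Cdh5 at 0.0247, Esam at 0.0517 and Cldn5, the tight junction claudin, at -0.0307. In Dp1TybDyrk1a+/+/- Pecam1 stood at 0.0717, adjusted P = 0.486, Cdh5 at 0.0913, adjusted P = 0.547, and Cldn5 at -0.130, adjusted P = 0.501. Emcn, Cd34, Icam2, Ecscr, Robo4 and Ptprb, the phosphatase that acts on the angiopoietin receptor, lay between -0.0206 and 0.0668 in Dp1Tyb and between -0.0424 and 0.0695 in Dp1TybDyrk1a+/+/-.

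None of the 5 receptor tyrosine kinases passed in any of the 4 comparisons, and the largest log2 fold change against WT among them was 0.106. Flt4 and Tek had an unadjusted limma P under 0.05 in Dp1Tyb against WT, and 0 of the 5 did in Dp1TybDyrk1a+/+/- against WT. Tek, the angiopoietin receptor, had WT hearts from 11.48 through 11.61 to 11.68 and Dp1Tyb hearts at 11.74, 11.63, 11.64, 11.69 and 11.75. The groups overlapped, and the log2 fold change was 0.0993, adjusted P = 0.190. Tek passed with hearts weighted by quality, adjusted P = 0.043 (limma), and stood at 0.102, adjusted P = 0.0565, without the 2 hearts that stood apart. For both duplication genotypes against WT it went from 0.0806, adjusted P = 0.301, to 0.103, adjusted P = 0.0415, without these hearts. Flt4, the VEGF-C receptor, had the largest estimate in Dp1Tyb, 0.106 ± 0.0346 (SE), adjusted P = 0.111 (limma), with 4 of 5 Dp1Tyb hearts above all WT hearts. Without the 2 hearts that stood apart it was 0.108, adjusted P = 0.00934, and its difference from Dp1TybDyrk1a+/+/- hearts went from 0.0601, adjusted P = 0.423, to 0.106, adjusted P = 0.0474. Kdr, the main VEGF receptor, stood at 0.0312 and 0.0506, the VEGF receptor Flt1 at -0.0235 and 0.0692, and Tie1, the partner of Tek, at 0.0952 and 0.0148 in the 2 mutants.

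The 9 transcription factors also held 0 calls in limma, and 4 of them had an unadjusted P under 0.05 in Dp1Tyb against WT. Ets1, an ETS factor, had WT hearts from 11.39 through 11.44 to 11.52, Dp1Tyb hearts at 11.39, 11.30, 11.35, 11.42 and 11.44, and a log2 fold change of -0.0636, adjusted P = 0.250. In Dp1TybDyrk1a+/+/- it stood at -0.0606, adjusted P = 0.479. Fli1, an ETS factor, had the most negative estimate in Dp1Tyb, -0.110 ± 0.0503 (SE), adjusted P = 0.293 (limma), with 4 of 5 Dp1Tyb hearts below all WT hearts. Without the 2 hearts it was -0.0884, adjusted P = 0.0409.

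Klf2, which responds to blood flow, had the largest positive estimate of the factors, 0.0951 ± 0.0322 (SE) in Dp1Tyb, adjusted P = 0.127 (limma), and -0.0312 in Dp1TybDyrk1a+/+/-, adjusted P = 0.770. The Dp1Tyb hearts gave 8.66, 8.68, 8.69, 8.84 and 8.77 and the Dp1TybDyrk1a+/+/- hearts 8.65, 8.54, 8.57, 8.64 and 8.61. The mutants did not overlap, but the difference of 0.126 missed the threshold at an adjusted P = 0.0881 (limma). Klf4, the related factor, stood at 0.0408 and -0.0297. Sox17, Sox7 and Sox18, the SOXF factors of endothelium, stood at -0.0879, -0.0636 and -0.0487 in Dp1Tyb and at -0.0817, -0.0105 and -0.0579 in Dp1TybDyrk1a+/+/-, and Lmo2 at 0.039 and 0.00539.

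Tal1, a factor shared by endothelial and blood cells, varied more between WT hearts than any other member, from 8.84 in replicate 3 to 9.77 in replicate 5. The mean log2 value of 10 erythroid markers was also lowest in WT replicate 3, at 11.63, and highest in WT replicate 5, at 13.63. The part of blood in the Tal1 values was not tested. Its log2 fold change was 0.0584 ± 0.143 (SE) in Dp1Tyb, adjusted P = 0.897 (limma).

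The 4 lymphatic and scavenger members did not pass against WT, and Stab1 and Prox1 had an unadjusted limma P under 0.05 there, both in Dp1Tyb. Stab1, a scavenger receptor of endothelium and macrophages, had the largest estimate in Dp1Tyb, 0.156 ± 0.0561 (SE), adjusted P = 0.154 (limma), with WT hearts from 10.86 through 11.21 to 11.32 and Dp1Tyb hearts at 11.46, 11.25, 11.23, 11.37 and 11.36. The lowest WT heart is replicate 6. Without the 2 hearts the log2 fold change was 0.120, adjusted P = 0.0354. The Stab1 exons share 113 annotated bases with Nt5dc2 on the other strand.

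Prox1, the factor that sets lymphatic identity and is also made by cardiomyocytes, had the most negative estimate of the role in Dp1Tyb. Its WT hearts ran from 11.17 through 11.28 to 11.37, the Dp1Tyb hearts gave 11.19, 11.13, 11.11, 11.19 and 11.24, and the Dp1TybDyrk1a+/+/- hearts gave 11.25, 11.55, 11.25, 11.35 and 11.32. On the log2 scale the change was -0.107, adjusted P = 0.225, in Dp1Tyb and 0.0649, adjusted P = 0.648, in Dp1TybDyrk1a+/+/-. All 5 Dp1Tyb hearts lay below all 5 Dp1TybDyrk1a+/+/- hearts, a difference of -0.172 ± 0.0504 (SE), adjusted P = 0.0875 (limma). The median log2 fold change of 14 cardiomyocyte markers between the mutants was -0.117, 12 of them being below 0 and 0 passing the test, with 5 at an unadjusted limma P under 0.05. Their part in the Prox1 values was not tested.

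Lyve1, a hyaluronan receptor of lymphatic vessels and macrophages, stood at 0.105 in Dp1Tyb, adjusted P = 0.482, and -0.119 in Dp1TybDyrk1a+/+/-, adjusted P = 0.569. The Dp1Tyb hearts gave 7.72, 7.68, 7.80, 7.71 and 7.70 and the Dp1TybDyrk1a+/+/- hearts 7.34, 7.78, 7.57, 7.37 and 7.42, of which replicate 2 was the highest. The difference between the mutants was 0.224, adjusted P = 0.125, and 0.294, adjusted P = 0.0324, without that heart. The weakly expressed Stab2 differed by 0.044 between the mutants, adjusted P = 0.197, with no overlap of hearts.

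Hearts of Dp1Tyb and WT did not overlap in 5 members, Clec14a, Ramp3, Calcrl, Mmrn2 and Entpd1, all higher in Dp1Tyb, where 1.51% of all genes were higher without overlap and 2.63% were so in either direction. For Dp1TybDyrk1a+/+/- and WT this held for 2 members, Calcrl and Entpd1, beside 0.562% of all genes as higher, 0.0784% as lower and 0.640% in either direction. The same 2 stood apart with both duplication genotypes set against WT, beside 0.464% of all genes as higher, 0.0196% as lower and 0.484% in either direction. Between the mutants it held for 4 members, Ramp3, Klf2 and Stab2 as higher and Prox1 as lower in Dp1Tyb, beside 5.65% of all genes in either direction, 2.10% higher and 3.55% lower. None of these 4 passed in limma, and all had an unadjusted P under 0.05.

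Within sequencing lanes the higher members kept their direction. The Dp1Tyb hearts fell 2, 2 and 1 in lanes 3, 6 and 7, and the WT hearts 4, 4 and 2. The within-lane difference of means for Dp1Tyb against WT was 0.263, 0.223 and 0.302 for Entpd1, 0.190, 0.184 and 0.202 for Calcrl, and 0.245, 0.166 and 0.132 for Mmrn2. For Cytl1 it was 0.168, 0.0992 and 0.214, for Plvap 0.172, 0.174 and 0.152, for Clec14a 0.116, 0.173 and 0.0671, and for Ramp3 0.119, 0.0814 and 0.0923. These are differences of few hearts without a test. Of the Dp1TybDyrk1a+/+/- hearts 3 of 5 were in lane 7, and with lane as a covariate Entpd1 alone passed there, with an adjusted P = 0.000289 (limma), while Clec14a, Calcrl and Mmrn2 stood at 0.0621, 0.113 and 0.140. Over all genes 0.608% passed in that fit.

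Other endothelial genes outside the duplication, a list of 50 with 49 tested, gave 3 higher and 0 lower in Dp1Tyb against WT, beside the 1.81% of all genes that were higher. Vwf, the clotting factor stored by endothelium and platelets, rose by 0.474 in Dp1Tyb, adjusted P = 2.5e-06 (limma), and by 0.326 in Dp1TybDyrk1a+/+/-, adjusted P = 0.000502, with all 10 mutant hearts above all WT hearts. Icam1, a leukocyte adhesion molecule, rose by 0.172 in Dp1Tyb, adjusted P = 0.00207, and Bmx, a TEC-family kinase of arterial endothelium and endocardium, by 0.111, adjusted P = 0.0409. The Bmx call was lost in 11 of 20 fits that left out 1 heart, with an adjusted P of up to 0.142. The median log2 fold change of this list in Dp1Tyb was 0.00696.

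The 5 listed endothelial genes inside the duplication have 3 copies in both mutants. Ets2, Jam2, Adamts1 and Cyyr1 rose in Dp1Tyb by 0.358, 0.337, 0.314 and 0.269 on the log2 scale, and all 4 also rose in Dp1TybDyrk1a+/+/- (adjusted P up to 0.00538, limma). Erg, the ETS factor of endothelium, passed in Dp1TybDyrk1a+/+/- at 0.238, adjusted P = 0.0214, and stood at 0.138 in Dp1Tyb without passing. Dyrk1a RNA itself ran from 11.28 to 11.43 in WT, from 11.66 to 11.75 in Dp1Tyb and from 11.70 to 11.85 in Dp1TybDyrk1a+/+/- hearts. Its RNA level therefore does not check the label of the null allele. The paper reports from RNA-seq that a Dyrk1a allele of this strain lacked exons, which values per gene cannot show.

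Markers of other cell types gave 0 calls in each of the 4 comparisons (limma), over 74 tested of 80. Of all genes 3.08%, 0.712%, 1.16% and 1.35% passed in these comparisons, in the order used above. At an unadjusted P under 0.05 there were 12 in Dp1Tyb against WT, 5 in Dp1TybDyrk1a+/+/- against WT and 10 between the mutants. The shares of all genes at that level were 15.6%, 9.64% and 18.5%. Macrophages also make Entpd1, Stab1 and Lyve1. The 9 macrophage markers had a median log2 fold change of -0.0149 in Dp1Tyb and -0.0143 in Dp1TybDyrk1a+/+/-, and their summed level ran from 10.92 to 11.15 in WT, 10.97 to 11.11 in Dp1Tyb and 10.93 to 11.05 in Dp1TybDyrk1a+/+/- hearts on the log2 scale. The 10 fibroblast and cushion mesenchyme markers were all above 0 in Dp1Tyb, with a median of 0.103, and their summed level ran from 16.97 to 17.20 in Dp1Tyb and from 16.65 to 17.18 in WT hearts. In Dp1TybDyrk1a+/+/- against WT 4 of these 10 were above 0, with a median of -0.00524, and between Dp1Tyb and Dp1TybDyrk1a+/+/- all 10 were above 0, with a median of 0.109 and 0 passing the test in limma (3 at an unadjusted P under 0.05). The 14 cardiomyocyte markers had a median of -0.0582 in Dp1Tyb against WT, 4 being above 0, and of 0.0602 in Dp1TybDyrk1a+/+/- against WT, 11 being above 0. Of 8 platelet and megakaryocyte markers 7 were above 0 in Dp1Tyb against WT, with a median of 0.0405 and 2 at an unadjusted limma P under 0.05. In Dp1TybDyrk1a+/+/- against WT 4 of the 8 were above 0, with a median of 0.00019. Between the mutants 7 of the 8 were above 0, with a median of 0.0386. Of 10 erythroid markers 8 were above 0 in Dp1Tyb against WT, with a median of 0.123. In Dp1TybDyrk1a+/+/- against WT 4 of the 10 were, with a median of -0.0343. Dp1Tyb against Dp1TybDyrk1a+/+/- gave 9 of the 10 above 0, with a median of 0.154. None had an unadjusted limma P under 0.05. In Dp1Tyb against WT 6 of 8 epicardium markers (median 0.0324) and 3 of 8 smooth muscle and pericyte markers (median -0.0585) were above 0. The part of cell composition in the endothelial values was not tested.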

How the data were processed

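RNA from 20 whole hearts was measured by RNA-seq. The values the authors deposited are log2 values of normalized counts for 48795 genes, and the transformation is not named in the sources used here. Per the submitters' processing notes, Trimmomatic 0.36, STAR 2.5.2a, RSEM 1.2.31 and DESeq2 were used with build GRCm38. The spread of weakly expressed genes shrinks in such log2 values, so their fold changes may be understated. Better expressed genes may be affected too. The 5 listed endothelial genes with 3 copies rose by at most 0.358 in Dp1Tyb, less than the paper reports for genes in 3 copies. The cause was not tested. Columns given to no sample numbered 0. Depth is unknown, so no counting interval is given and precision comes from how far hearts of 1 genotype differ. The labels do not say which hearts share a litter, and P-values measure only the spread between these hearts.

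DESeq2 was not used here, since it models counts. Instead, limma 3.58.1 (R 4.3.3) was fitted to the log2 values with 1 mean per genotype, all 20 hearts, a trended prior and Benjamini-Hochberg adjustment over 15304 genes with a mean of 2 to the power of the value of at least 10. Adjusted P-values under 0.05 passed. Exact two-sided permutation tests enumerated 3003 regroupings of hearts. They were run only for genes already past the limma threshold and are not adjusted, so they are not separate support for those genes. Fold changes are on the deposited log2 scale. The fit was tested on simulated data. Gene names and canonical transcript lengths came from GENCODE M39 and promoters from RefSeq, GRCm38.p6. Python 3.11.15 with pandas 2.3.3 was used for the rest.

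The members and lists were chosen with earlier results of these data known. Members past the threshold were named with every heart. In each role the member with the highest mean log2 value, not divided by length, and the largest positive and negative fold change in Dp1Tyb were also named, with the other endothelial genes that passed, the duplicated ones and Dyrk1a. Motifs and the members singled out between the mutants were chosen after their values were seen. Alternatives changed the filter, scaling, limma settings, heart weights, lane, groups in the fit and single hearts. Other data of the study were not analysed here.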

Additional observations from a re-analysis of the deposited data

Results flagged for a closer look

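For each member and genotype, the highest and the lowest heart were compared with the nearest other heart of the same genotype by Dixon's test. Of 162 groups of hearts, 27 had a heart with a gap larger than the 95% limit, and chance alone flags about 1 in 20 groups. The values are log2 normalized counts, with the nearest heart of the genotype in parentheses.

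Dp1TybDyrk1a+/+/- replicate 2 was the separate heart in 14 of the 27. It was the highest heart of its genotype for Pecam1 at 11.73 (nearest 11.64), Cdh5 at 12.53 (nearest 12.29), Emcn at 10.45 (nearest 9.99), Ptprb at 10.67 (nearest 10.49), Flt1 at 10.92 (nearest 10.73), Flt4 at 10.09 (nearest 9.89) and Adgrl4 at 8.76 (nearest 8.60). It was the lowest heart for Esam at 8.89 (nearest 9.31), Icam2 at 8.36 (nearest 8.81), Tek at 11.49 (nearest 11.65), Tie1 at 10.98 (nearest 11.32), Egfl7 at 9.45 (nearest 9.81), Stab1 at 11.08 (nearest 11.23) and Aqp1 at 9.27 (nearest 9.70). WT replicate 6 was the separate heart in 6. It was the highest WT heart for Emcn at 10.42 (nearest 10.04), S1pr1 at 11.26 (nearest 11.04), Fli1 at 9.49 (nearest 9.35) and Entpd1 at 9.24 (nearest 9.10), and the lowest for Esam at 9.11 (nearest 9.25) and Stab1 at 10.86 (nearest 11.13). Emcn, Esam and Stab1 were thus separate in both hearts, in the same direction.

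The other 7 fell on 5 hearts. WT replicate 9 was highest for Tll1 at 6.77 (nearest 6.68) and lowest for Plvap at 10.31 (nearest 10.45). WT replicate 10 was highest for Adgrf5 at 10.68 (nearest 10.59) and lowest for Mmrn1 at 7.58 (nearest 7.88). Dp1Tyb replicate 5 was lowest for Mmrn1 at 7.69 (nearest 8.07). Dp1TybDyrk1a+/+/- replicate 4 was lowest for Aplnr at 8.85 (nearest 9.10), and replicate 5 was highest for Robo4 at 7.95 (nearest 7.84). The cause of these gaps was not tested.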

How the results depend on the processing

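Of the 16 log2 fold changes of members that passed, recomputed under the alternatives to 477 values, 444 kept their call, 33 lost it and 0 reversed. Some of these values could not move. For both duplication genotypes against WT, the fit with only the groups compared equals the main fit. In the other comparisons, leaving out a heart of the genotype not compared leaves the fold change as it was. In Dp1Tyb against WT, where 7 members passed, 14 passed with hearts weighted by quality (13 higher and Prox1 lower, beside 9.29% of all genes) and 13 without both hearts that stood apart, an alternative chosen after seeing the data. Leaving out single hearts gave 5 to 10 members, beside 266 to 959 of all 15304 genes, and 471 genes in the main fit. In Dp1TybDyrk1a+/+/- against WT, where 4 passed, 2 passed with no filter on low values (Clec14a and Entpd1), beside 98 of 29322 genes. With lane as a covariate 1 passed (Entpd1), beside 0.608% of all genes. Without single hearts 1 to 4 members passed, beside 88 to 158 of 15304 genes, and 109 genes in the main fit. Without WT replicate 7 or Dp1TybDyrk1a+/+/- replicate 1 or 3 the count of members was 2, and without Dp1TybDyrk1a+/+/- replicate 4 or 5 it was 1. Between the mutants, where 0 passed, 6 passed with weighted hearts (Flt4, Ramp3, Klf2, Cytl1 and Lyve1 higher, Prox1 lower in Dp1Tyb, beside 8.15% of all genes) and 2 without both hearts that stood apart. Without single hearts 0 to 1 members passed, beside 30 to 404 of 15304 genes, and 178 genes in the main fit. For both duplication genotypes against WT, where 5 passed, 10 passed with weighted hearts (4.46% of all genes) and 10 without both hearts (3.44%). Without single hearts 5 to 9 members passed, 9 being without Dp1TybDyrk1a+/+/- replicate 2. Of all 15304 genes 173 to 388 passed in these fits, 388 being without that replicate, and 207 in the main fit. The cause of these changes was not tested. Plvap in Dp1Tyb lost its call with no filter, and Mmrn2 in Dp1TybDyrk1a+/+/- with only the groups compared. Entpd1 kept its call in every alternative run. Centring, quantile normalization, no trend and robust moderation left all 4 counts as they were. Log2 values without depth limit what can be said of Ramp3, Stab2, Gpihbp1, Cytl1 and Sox17. No paired analysis was possible because no label ties a heart of 1 genotype to a heart of another. The replicate numbers only follow the order of the samples.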
